A study of Mus musculus with 5 samples.

Results

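Knockdown of Trim28 was compared with a control hairpin in mouse embryonic stem cells, using both libraries with a hairpin against Trim28 and the library with a hairpin against GFP. Members were the rows of the deposited tables with a mean of at least 20 estimated counts over the 5 libraries of the series. This gave 6079 of 28642 gene rows and 682 of 1221 repeat rows. Of the gene members 5687 carried a symbol and 392 a UCSC identifier. All groups were cells of ES-D3, an established mouse line of embryonic stem cells, kept on γ-irradiated feeder cells with leukemia inhibitory factor, infected with a lentiviral hairpin and selected with puromycin. Feeder cells were then depleted by 30 minutes of replating, and total RNA was read by single-molecule sequencing without amplification. The shTrim28 group had 2 libraries, each with another hairpin against Trim28, called hairpin 1 and hairpin 2 in the order in which the samples are listed. The labels give no replicate numbers, so those used here only name a library. The group labelled shWtx, the other gene targeted in the series, had 2 libraries whose hairpins share 20 of 21 target bases. The shGFP group, the control, had 1 library. The labels do not say that cultures were otherwise separate, so p-values measure only how far libraries with different hairpins of a group spread. That spread is estimated in part from all rows together, not from each row alone, and may be technical in part. The control has 1 library and adds nothing to that estimate.

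Trim28 (also called Kap1) is a corepressor that KRAB zinc finger proteins bring to DNA. It assembles the histone methyltransferase Setdb1, HP1 proteins and histone deacetylases into silent chromatin. In embryonic stem cells this complex is known for silencing endogenous retroviruses, IAP elements above all, and Trim28 is also needed to keep these cells undifferentiated.

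Both hairpin targets are shown because they are the only difference by design between the shTrim28 libraries. They lie in the coding sequence of Trim28 on the plus strand of chromosome 7 (GRCm38, matched to GENCODE M21 transcripts). Capitals mark the 21 target bases and lower case the 20 transcript bases on each side. The target of hairpin 1 is in exon 12 of 17, at chr7:13029440-13029460, and that of hairpin 2 in exon 16, at chr7:13030559-13030579.
Hairpin 1: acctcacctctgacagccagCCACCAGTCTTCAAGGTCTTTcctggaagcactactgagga
Hairpin 2: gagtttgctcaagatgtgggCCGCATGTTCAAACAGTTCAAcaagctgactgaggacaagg
The targets start 791 bases apart in the transcript and do not overlap. In the longest transcript of every other gene, hairpin 1 had 0 matches with up to 3 mismatches. Hairpin 2 had 1, in Rlf with 3 mismatches, and Rlf stood at 72.6 and 43.8 CPM in shTrim28 libraries with hairpins 1 and 2, against 41.2 CPM in the control (adjusted p = 0.717).

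Gene totals were 280614 and 1901563 estimated counts for hairpins 1 and 2, 763130 and 377794 in the libraries labelled shWtx, and 586408 in the control. Levels below are CPM, counts scaled to the effective library size that edgeR's TMM method derives from the gene table, and that size applies to repeats too. Fam123b, the symbol of Wtx in the files, was at 18.1 and 30.3 CPM with the Trim28 hairpins, and at 26.3 and 16.5 CPM in the libraries labelled shWtx, against 14.3 CPM (8 counts) in the control, so its counts do not check that label. Chemoreceptor genes, which stem cells are not known to use, made up 0.233% and 0.152% of gene counts with the Trim28 hairpins. They made up 0.449% and 0.385% in the libraries labelled shWtx, against 0.0339% in the control. Repeat counts outside ribosomal RNA, per gene count, were 1.77 and 1.27 times the control ratio with the Trim28 hairpins. In the libraries labelled shWtx the same ratio was 2.72 and 2.43 times that of the control. The part of these library-wide differences in the results below was not tested. A value given with the chemoreceptor level subtracted or with another scaling shows the effect of that setting only.

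Trim28 itself was counted 18 and 86 times with the Trim28 hairpins and 437 times in the control. It stood at 65.3 CPM (exact 95% Poisson interval 38.7 to 103) with hairpin 1 and 48.3 CPM (38.6 to 59.6) with hairpin 2, against 783 CPM (711 to 860) in the control. The intervals of both hairpins overlapped each other and lay far below that of the control. The libraries labelled shWtx were at 400 and 396 CPM. The log2 fold change was −3.88 in shTrim28 relative to the control (SE 0.29, adjusted p = 2.78e-09 by edgeR's quasi-likelihood test).

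Of the gene members, 414 were higher in shTrim28 than in the control and 217 lower, at an adjusted p under 0.05 over all 10878 gene rows tested. The called shares were 6.81% and 3.57% of members, 10.4% in either direction, beside 4.27% and 2.26% of all gene rows tested. Without hairpin 1 the counts were 67 higher and 28 lower, without hairpin 2 they were 28 and 2, and by DESeq2 they were 168 and 93. With DESeq2 size factors in place of TMM they were 353 and 301, with quantile normalization 188 and 210, and on the rows with a transcript length 290 and 333. The median log2 fold change of the members was 0.03, and −0.07 with DESeq2 size factors. Among members over 400 CPM it was −0.30 (341 rows), and among those under 50 CPM 0.23 (2574 rows). Over all members, called or not, both hairpins were above the control in 2500 (41.1%), below it in 2297 (37.8%) and on opposite sides in 1282 (21.1%). Over all gene rows tested these shares were 45.1%, 30.7% and 24.1%. Both hairpin libraries differed from each other by at least 2-fold in 448 members (7.37%), and the pair labelled shWtx in 286 (4.7%). At the count minimum, Cntd1, just inside it, had a log2 fold change of −0.67, and Dtwd2, just outside it, had −0.64.

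**Figure D1:**
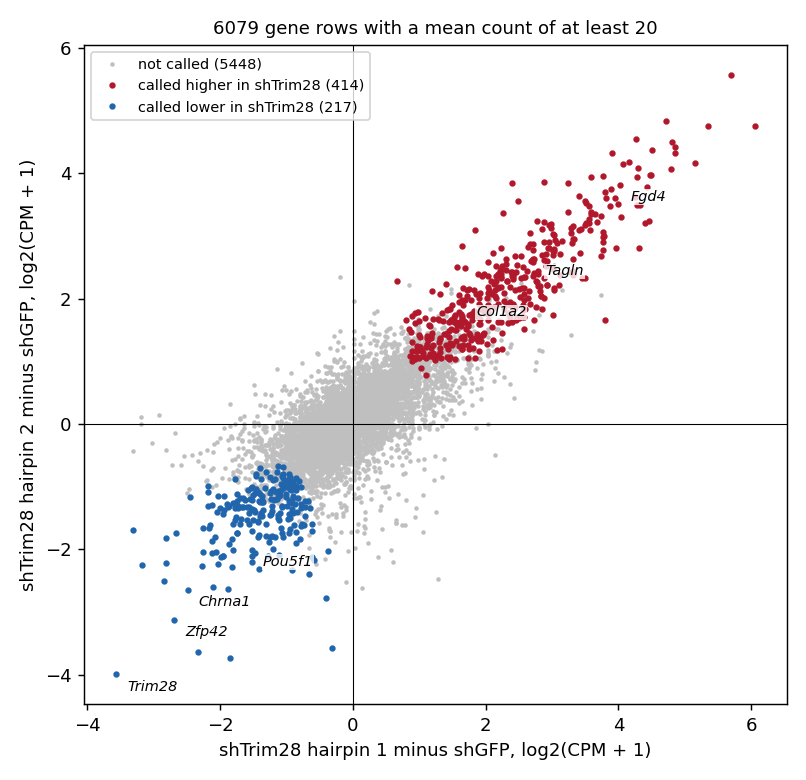
Each point is 1 of 6079 gene members, with its log2(CPM + 1) in the shTrim28 library of hairpin 1 (x axis) and of hairpin 2 (y axis), both minus that of the shGFP control. The 414 members called higher (red) lie to the upper right and the 217 called lower (blue) to the lower left, with Trim28 at the lower left end, and both axes share the control library.

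The 15 lower members with a symbol and the lowest p included several genes of the pluripotency list and genes of other kinds. After Trim28 they were Zfp42, Chrna1, Mkrn1, Utf1, Dppa5a, Car2, Esrrb, H2-T23, Tcf15, Stmn2, Upp1, L1td1, Fbxo15 and Pou5f1. Zfp42 (Rex1), a zinc finger protein that marks the naive state, stood at 112 and 82.5 CPM in shTrim28, and at 364 and 358 CPM in the libraries labelled shWtx, against 729 CPM in the control. Both Trim28 hairpins were thus below every other library, at −2.98 relative to the control on the log2 scale (SE 0.28, adjusted p = 1.08e-07). Chrna1, a subunit of the muscle acetylcholine receptor, stood at 72.6 and 64.5 CPM in shTrim28, and at 241 and 245 CPM in the libraries labelled shWtx, against 410 CPM in the control (log2 fold change −2.61, SE 0.28, adjusted p = 6.3e-07). Mkrn1, a ubiquitin ligase, was at 134 CPM with each Trim28 hairpin, against 652 CPM in the control (−2.28, SE 0.27, adjusted p = 2.95e-06). Tcf15, a bHLH transcription factor of cells about to leave the naive state, was at 18.1 and 6.73 CPM in shTrim28, against 94.9 CPM in the control (−3.41, SE 0.47, adjusted p = 2.17e-05). Hairpins differed most within this set for H2-T23, which encodes the non-classical MHC class I molecule Qa-1. It was counted 20 times with hairpin 1 and 34 times with hairpin 2, whose library was deeper, against 148 times in the control (−3.06, SE 0.42, adjusted p = 2.08e-05).

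Of 32 pluripotency members, 17 fell, 0 rose and 15 did not pass the test, and their median log2 fold change was −1.12 (all members 0.03). The called share was 53.1%, beside 10.4% of all members. Both hairpins were below the control in 28 of the 32. The libraries labelled shWtx were also below the control for this list as a whole. Its 42 rows summed to 4742 and 5393 CPM in shTrim28, and to 5930 and 6440 CPM in the libraries labelled shWtx, against 12405 CPM in the control. Relative to the libraries labelled shWtx, 12 of the 32 members were called lower and 2 higher, with a median of −0.47. Pou5f1 (Oct4), the core transcription factor of pluripotent cells, was at 298 and 212 CPM in shTrim28, and at 523 and 507 CPM in the libraries labelled shWtx, against 856 CPM in the control. Its log2 fold change relative to the control was −1.80 (SE 0.27, adjusted p = 5.48e-05). Dppa5a, an RNA-binding protein abundant in stem cells, was at 653 and 788 CPM in shTrim28, against 2763 CPM in the control (−1.93, SE 0.25, adjusted p = 1.09e-05). Utf1, a chromatin protein of undifferentiated cells, was at 29.0 and 37.0 CPM in shTrim28, against 215 CPM in the control (−2.61, SE 0.32, adjusted p = 4.12e-06). Sox2 and Nanog, the other core factors, had smaller log2 fold changes. Sox2 was at 76.2 and 97.1 CPM in shTrim28, against 224 CPM in the control (−1.31, SE 0.30, adjusted p = 0.00763). Nanog was at 83.5 and 80.8 CPM in shTrim28, against 179 CPM in the control (−1.13, SE 0.30, adjusted p = 0.0226). Nr0b1 (Dax1), a nuclear receptor of the naive state, had too few counts to be a member (mean 17.8). It was counted once and 5 times with hairpins 1 and 2 (3.63 and 2.81 CPM), against 43 times in the control (77.0 CPM), and its log2 fold change was −4.64 (SE 0.57, adjusted p = 4.12e-06). The count of 17 was 17 with the chemoreceptor level subtracted, and 19 on the rows with a transcript length and nothing subtracted. It was 8 without hairpin 1 and 1 without hairpin 2, with medians of −1.18 and −1.16.

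The promoter of Zfp42 is shown because Zfp42 had the lowest p after Trim28 among lower members and its upstream sequence holds an octamer, the motif bound by Oct4 in embryonic stem cells. The stretch printed is chr8:43307158-43307225 on the minus strand (RefSeq, GRCm38.p6), with the motif ATTTGCAT in capitals, starting 186 bases before the transcript start.
Zfp42 promoter: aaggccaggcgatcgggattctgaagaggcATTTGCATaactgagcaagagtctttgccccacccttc
ATTTGCAT on either strand was found in the 250 bases before the start in 1.81% of the 27025 genes with a promoter sequence. Of all members with a sequence it was present in 53 of 3997 (1.33%), and of pluripotency members in 2 of 19. Among called lower members it was present in 5 of 139 (3.6%), and among called higher members in 6 of 206 (2.91%). A match is a description of the letters and not a measured site.

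Lists of silencing genes had shares of calls near that of all members, or rested on few genes. Of 29 members of the Trim28 complex and its silencing partners, 3 fell, 0 rose and 26 did not pass the test (median −0.22), a called share of 10.3% beside 10.4% of all members. Beside Trim28 these were Zfp57 and Rbbp4. Zfp57, a KRAB zinc finger protein that guards imprinted marks through Trim28, was at 65.3 and 39.3 CPM in shTrim28, against 127 CPM in the control (−1.45, SE 0.35, adjusted p = 0.0111). Rbbp4, a histone-binding subunit of several chromatin complexes, was at 283 and 366 CPM in shTrim28, against 623 CPM in the control (−0.91, SE 0.27, adjusted p = 0.0389). Of 10 DNA methylation members 2 fell, both de novo methyltransferases. Dnmt3a was at 61.7 and 88.1 CPM in shTrim28, against 281 CPM in the control (−1.81, SE 0.29, adjusted p = 0.000162). Dnmt3b was at 21.8 and 25.3 CPM in shTrim28, against 107 CPM in the control (−2.13, SE 0.36, adjusted p = 0.000354). Without either hairpin in turn, neither gene passed the test. Of 19 Polycomb members Jarid2 and Rbbp4 fell (10.5%, also beside 10.4%), and Jarid2, which helps Polycomb complex 2 to its targets, was at 72.6 and 99.3 CPM in shTrim28, against 249 CPM in the control (−1.45, SE 0.29, adjusted p = 0.00217).

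Signalling genes moved in both directions. Called shares were 20% of Fgf and Erk members and 47.4% of TGF-beta and BMP members. They were 7.69% of Igf members and 33.3% of retinoic acid members, beside 10.4% of all members. Of 20 members of the Fgf and Erk pathway 4 fell and 0 rose. They were the Erk response genes Ier2, Spry4, Etv4 and Etv5, with log2 fold changes between −1.73 and −1.10. By DESeq2, and without either hairpin in turn, 0 of the 20 passed the test, and the median of −0.06 was 0.06 without either hairpin. Of 19 members of the TGF-beta and BMP pathway 6 rose and 3 fell (median 0.93). These counts were 1 and 1 by DESeq2, 1 and 0 without hairpin 1, and 0 and 0 without hairpin 2. Id3, an inhibitor of bHLH factors and a BMP target, was at 287 and 361 CPM in shTrim28, and at 91.2 and 105 CPM in the libraries labelled shWtx, against 91.3 CPM in the control (1.85, SE 0.32, adjusted p = 0.000438). Its relatives moved alike: the log2 fold change of Id2 was 2.31 (SE 0.45, adjusted p = 0.00149) and that of Id1 1.58 (SE 0.38, adjusted p = 0.0117). Tdgf1 (Cripto), the Nodal coreceptor of stem cells, was at 243 and 337 CPM in shTrim28, against 768 CPM in the control (−1.36, SE 0.26, adjusted p = 0.00144). It was at 293 and 333 CPM in the libraries labelled shWtx, so the hairpin groups overlapped there. In the Igf pathway 1 of 13 members rose, the fetal growth factor Igf2, at 50.8 and 52.2 CPM in shTrim28, against 8.95 CPM (5 counts) in the control (2.51, SE 0.60, adjusted p = 0.0104). Of 9 retinoic acid members, Rarg and Stra8 fell and Nr2f1 rose, with log2 fold changes of −1.95, −2.08 and 1.32. That list's median of 0.47 was −0.20 without hairpin 2, and 0 of the 9 passed the test without either hairpin in turn.

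Fibroblast genes were the list with the most higher calls. Of 30 fibroblast and feeder cell members 15 rose, 0 fell and 15 did not pass the test, with a median log2 fold change of 1.02. The called share was 50%, beside 10.4% of all members. Both hairpins were above the control in 25 of the 30. Col1a2, a chain of type I collagen, was at 461 and 559 CPM in shTrim28, and at 178 and 201 CPM in the libraries labelled shWtx, against 141 CPM in the control. Both Trim28 hairpins were above every other library, by 1.86 relative to the control on the log2 scale (SE 0.31, adjusted p = 0.000201). Fbln5, an elastic fibre protein, was at 109 and 126 CPM in shTrim28, against 25.1 CPM in the control (2.25, SE 0.42, adjusted p = 0.000887). Lox, which crosslinks collagen and elastin, was at 79.8 and 67.9 CPM in shTrim28, against 12.5 CPM (7 counts) in the control (2.50, SE 0.50, adjusted p = 0.00227). Lgals1 (galectin-1) was the most abundant of the leading members, at 2257 and 2713 CPM in shTrim28, against 989 CPM in the control (1.33, SE 0.28, adjusted p = 0.00406).

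The cells grew on a feeder layer, and the sum of fibroblast markers, some of them in the list above, was higher in shTrim28 too. The 13 fibroblast markers summed to 1970 and 2172 CPM in shTrim28, and to 809 and 1011 CPM in the libraries labelled shWtx, against 985 CPM in the control, where 1 of the 13, Lum, was at 0. Sparc (657 and 699 CPM) and Col1a2 were the largest parts of the shTrim28 sums. Not every marker followed the sum. Lum was at 0 and 1.12 CPM in shTrim28. Hairpins 1 and 2 lay on opposite sides of the control for Twist1 (29.0 and 43.8 against 32.2 CPM) and Col3a1 (32.7 and 78.6 against 41.2 CPM). The 9 stem cell markers summed to 1539 and 1666 CPM in shTrim28, and to 2743 and 3012 CPM in the libraries labelled shWtx, against 5987 CPM in the control. The part of remaining feeder cells in either sum was not tested, and in such bulk RNA a changed share of cells and a changed level per cell cannot be told apart. Markers of trophoblast and extraembryonic endoderm had low sums in all 5 libraries. The 4 trophoblast markers in the table summed to 68.9 and 51.6 CPM in shTrim28, and to 59.4 and 74.3 CPM in the libraries labelled shWtx, against 14.3 CPM in the control. The largest was Gata3 in shTrim28 (39.9 and 38.7 CPM) and Elf5 in the libraries labelled shWtx (35.9 and 33.0 CPM). In the control Gata3 had the most counts of these markers, 4. The 6 endoderm markers summed to 90.7 and 52.2 CPM in shTrim28, and to 96.8 and 85.4 CPM in the libraries labelled shWtx, against 50.1 CPM in the control, where 1 of the 6 was at 0. The fibroblast count of 15 was 17 with the chemoreceptor level subtracted, 1 without hairpin 1 and 0 without hairpin 2, with medians of 1.07, 1.02 and 0.99. By DESeq2 it was 8.

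**Figure D2:**
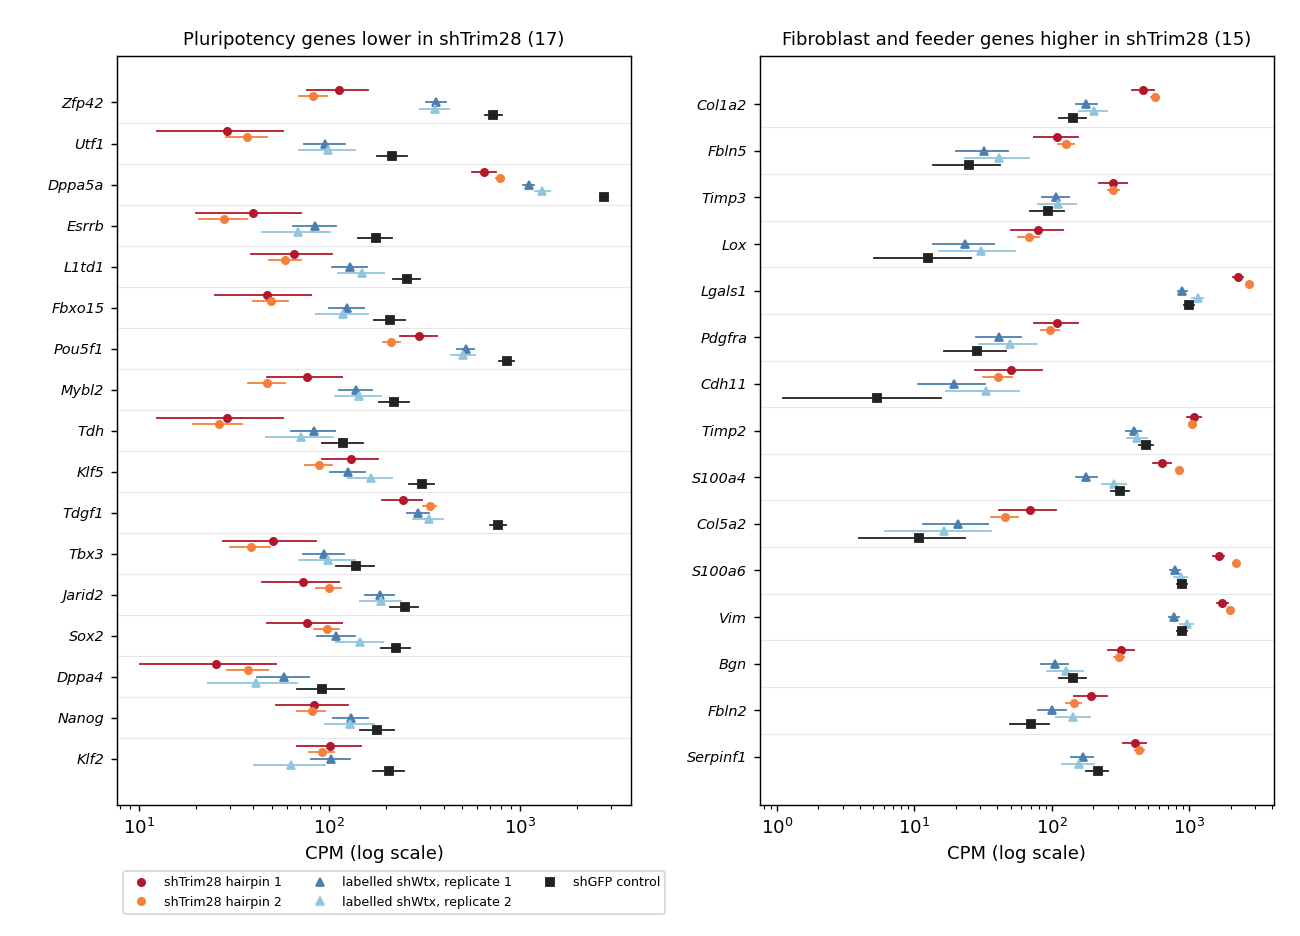
CPM on a log axis in each library, with exact 95% Poisson intervals as lines, for the 17 pluripotency members called lower (left) and the 15 fibroblast and feeder cell members called higher (right). Both shTrim28 libraries lie below the shGFP control in every gene on the left and above it in every gene on the right, and for Zfp42 and Col1a2 they also lie beyond both libraries labelled shWtx.

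Of 33 actin and contractile members 7 rose, 0 fell and 26 did not pass the test (median 0.32). The called share was 21.2%, beside 10.4% of all members. The count of 7 was 3 by DESeq2, 2 without hairpin 1 and 0 without hairpin 2. Tagln (transgelin), an actin-binding protein of smooth muscle, was at 149 and 138 CPM in shTrim28, and at 77.4 and 66.1 CPM in the libraries labelled shWtx, against 21.5 CPM in the control (2.71, SE 0.42, adjusted p = 9.57e-05). Acta2, smooth muscle actin, was counted 27 and 87 times in shTrim28 (98.0 and 48.8 CPM) and once in the control, a ratio of 30.9 with a 95% counting interval of 5.44 to 1233. It was at 69.1 and 63.3 CPM in the libraries labelled shWtx, between both Trim28 hairpins. Tpm1, a tropomyosin, was at 134 and 132 CPM in shTrim28, against 32.2 CPM in the control (2.04, SE 0.39, adjusted p = 0.00126). Called shares of the next lists were 33.3% (mesenchymal transition), 33.3% (Yap and Tead targets), 14.3% (basement membrane), 28.6% (epithelial adhesion) and 35.7% (germ layer). Of 18 mesenchymal transition members 6 rose and 0 fell (median 0.94), and 3 rose by DESeq2 and 0 without either hairpin in turn. Cd44, the hyaluronan receptor, was at 388 and 352 CPM in shTrim28, and at 187 and 215 CPM in the libraries labelled shWtx, against 111 CPM in the control (1.73, SE 0.31, adjusted p = 0.000635). Of 12 Yap and Tead target members 3 rose, Axl, Amotl1 and Cyr61, and Dlc1 fell, and 0 passed the test without either hairpin in turn. Of 14 basement membrane members 2 rose, Nid1 and P4ha2, and 0 without either hairpin in turn. Of 7 epithelial adhesion members, Krt8 rose (2.12, SE 0.58, adjusted p = 0.026) and Spint2 fell (−1.30, SE 0.37, adjusted p = 0.0326). Of 14 germ layer members 4 rose and 1 fell, with 0 and 0 by DESeq2, 0 and 1 without hairpin 1 and 0 and 0 without hairpin 2. The homeobox gene Hoxb1 was at 47.2 and 59.5 CPM in shTrim28, and at 12.4 and 8.26 CPM in the libraries labelled shWtx, against 10.7 CPM (6 counts) in the control (2.36, SE 0.55, adjusted p = 0.00903).

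Of 21 serine and one-carbon members 3 fell and 1 rose (19%, beside 10.4% of all members), and 0 passed the test without either hairpin in turn. Tdh, threonine dehydrogenase, which mouse stem cells depend on, was at 29.0 and 26.4 CPM in shTrim28, against 118 CPM in the control (−2.12, SE 0.35, adjusted p = 0.000249). Slc7a11, the cystine antiporter, was at 243 and 132 CPM in shTrim28, and at 442 and 416 CPM in the libraries labelled shWtx, against 32.2 CPM in the control (2.43, SE 0.43, adjusted p = 0.00049). Of 30 chaperone members 2 fell, Hspb1 and Fkbp4, of 29 nucleolar members 1 fell, Nhp2, and of 27 lysosomal members 1 rose, Lamp2. Called shares of those lists were 6.67%, 3.45% and 3.7%, all below the 10.4% of all members. Their medians were −0.27, −0.52 and 0.43 relative to the control, and 0.22, 0.0006 and 0.59 relative to the libraries labelled shWtx. The germline list had 1 member, Tex19.1, which fell (−1.92, SE 0.40, adjusted p = 0.00343), and of the long noncoding RNA list the member Gas5 did not pass the test (0.55, SE 0.27, adjusted p = 0.262).

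The higher members with the lowest p were of another kind. They were Fgd4, Slc38a6, Acad9, Traf5, Grk4, Hsd3b2, Cyb5r4, Zfp353, Samsn1, Ccdc82, Fam110b, Mmp12, Pot1b, Cntn1 and V1rd4. They come from unrelated gene families, and V1rd4 encodes a pheromone receptor. V1rd4 is itself 1 of the 1350 chemoreceptor rows summed above. It was at 475 and 260 CPM in shTrim28, and at 954 and 760 CPM in the libraries labelled shWtx, against 34.0 CPM in the control. The sums were not taken without it, so its levels and those sums are not independent. Fgd4, an exchange factor for Cdc42, was at 4336 and 3758 CPM in shTrim28, and at 9709.8 and 8615 CPM in the libraries labelled shWtx, against 267 CPM in the control. It was 3.92 higher on the log2 scale in shTrim28 than in the control (SE 0.34, adjusted p = 5.37e-08), and 1.18 lower than in the libraries labelled shWtx (adjusted p = 0.000692). Slc38a6, an amino acid transporter, was at 1854 and 2173 CPM in shTrim28, and at 4949 and 3546 CPM in the libraries labelled shWtx, against 174 CPM in the control (3.54 relative to the control, SE 0.35, adjusted p = 2.64e-07). Mmp12, macrophage elastase, was at 199.6 and 182 CPM in shTrim28, and at 415 and 424 CPM in the libraries labelled shWtx, against 12.5 CPM (7 counts) in the control (3.89, SE 0.45, adjusted p = 1.79e-06). Each of the 15 had this order of groups and was called lower in shTrim28 than in the libraries labelled shWtx.

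That order, the control lowest, both Trim28 hairpins between, and both libraries labelled shWtx highest, is also the order of the chemoreceptor sums. It was found in 241 of the 414 members called higher (58.2%), against 641 of all 6079 members (10.5%), and the choice of higher members fixes part of it. Of members with a UCSC identifier and no symbol, 116 of 392 were called higher (29.6%) and 17 lower (4.34%). Of members with a symbol, 298 of 5687 were called higher (5.24%) and 200 lower (3.52%). Transcripts were also searched for repeated sequence, taken as 31-base words present in at least 10 other genes on either strand (GENCODE M21). It filled over 5% of the transcript in 11 of 139 called higher members of that order (7.91%), in 1 of 125 called higher members with both Trim28 hairpins above both libraries labelled shWtx (0.8%), in 5 of 197 called lower members (2.54%), and in 101 of all 5639 members with a transcript (1.79%). A chemoreceptor level was then subtracted in proportion to transcript length, at 0.512 and 0.352 CPM per kb with the Trim28 hairpins. It removed 3.08% and 2.25% of gene counts there, 7.37% and 5.83% in the libraries labelled shWtx, and 0.421% in the control. So small a level could hardly move the call of an abundant gene, so calls that stayed do not test a larger background. With it subtracted, 274 of 293 higher members with a length were still called higher, and 196 of 197 lower members still lower. The fit with the level subtracted had its own scaling, and in all it called 305 members higher and 203 lower. A fit on the rows with a length, scaled on them and with nothing subtracted, called 290 higher and 333 lower.

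The libraries labelled shWtx gave a second set to compare with. Both comparisons use the same shTrim28 libraries, so what they share is given as a description with no test. Of gene members 557 were higher in shTrim28 than in the libraries labelled shWtx (9.16%) and 669 lower (11%) by the same fit, beside 5.45% and 9.83% of all gene rows tested. These counts were 123 and 279 by DESeq2, 148 and 303 without replicate 1 of the libraries labelled shWtx, 301 and 532 without hairpin 1, and 0 and 0 without hairpin 2 (1018 members at an unadjusted p under 0.05). Of the 414 members higher than the control, 93 were called higher than the libraries labelled shWtx also, 211 lower, and 110 neither. Of the 217 members lower than the control, 84 were also called lower than the libraries labelled shWtx, 0 higher and 133 neither. All 15 named lower members were among the 84. Members called higher in both comparisons included 84 with a symbol, led by Tagln, Col1a2, Trpc6, Lars2, Id3 and Cyp1b1, which are named here after their values were seen. Trpc6, a cation channel, was at 72.6 and 157 CPM in shTrim28, and at 49.8 and 74.3 CPM in the libraries labelled shWtx, against 14.3 CPM (8 counts) in the control (3.13, SE 0.53, adjusted p = 0.00028). Relative to the libraries labelled shWtx alone, the members of lowest p called higher were Gas1, Mest, Ly6a, Dlk1, Crabp1, Dcn, Arsk, Tcstv3, Id3 and Ephx1. Gas1, a Hedgehog coreceptor, was at 116 and 219.97 CPM in shTrim28, and at 19.4 and 11.01 CPM in the libraries labelled shWtx (3.45, adjusted p = 2.66e-06). Against the control at 82.4 CPM it did not pass the test (adjusted p = 0.0663). Mest, an imprinted gene of mesoderm, was at 428 and 778 CPM in shTrim28, and at 134 and 143 CPM in the libraries labelled shWtx, against 245 CPM in the control, and was called higher against both (log2 fold changes 2.16 and 1.34, adjusted p = 1.29e-05 and 0.0108). Those of lowest p called lower were Mrgpre, Trim28, Egfl6, Lonrf1, Man1c1, Zfp42, Ccdc82, Pfkfb2, Gm4297 and Sfi1.

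**Figure D3:**
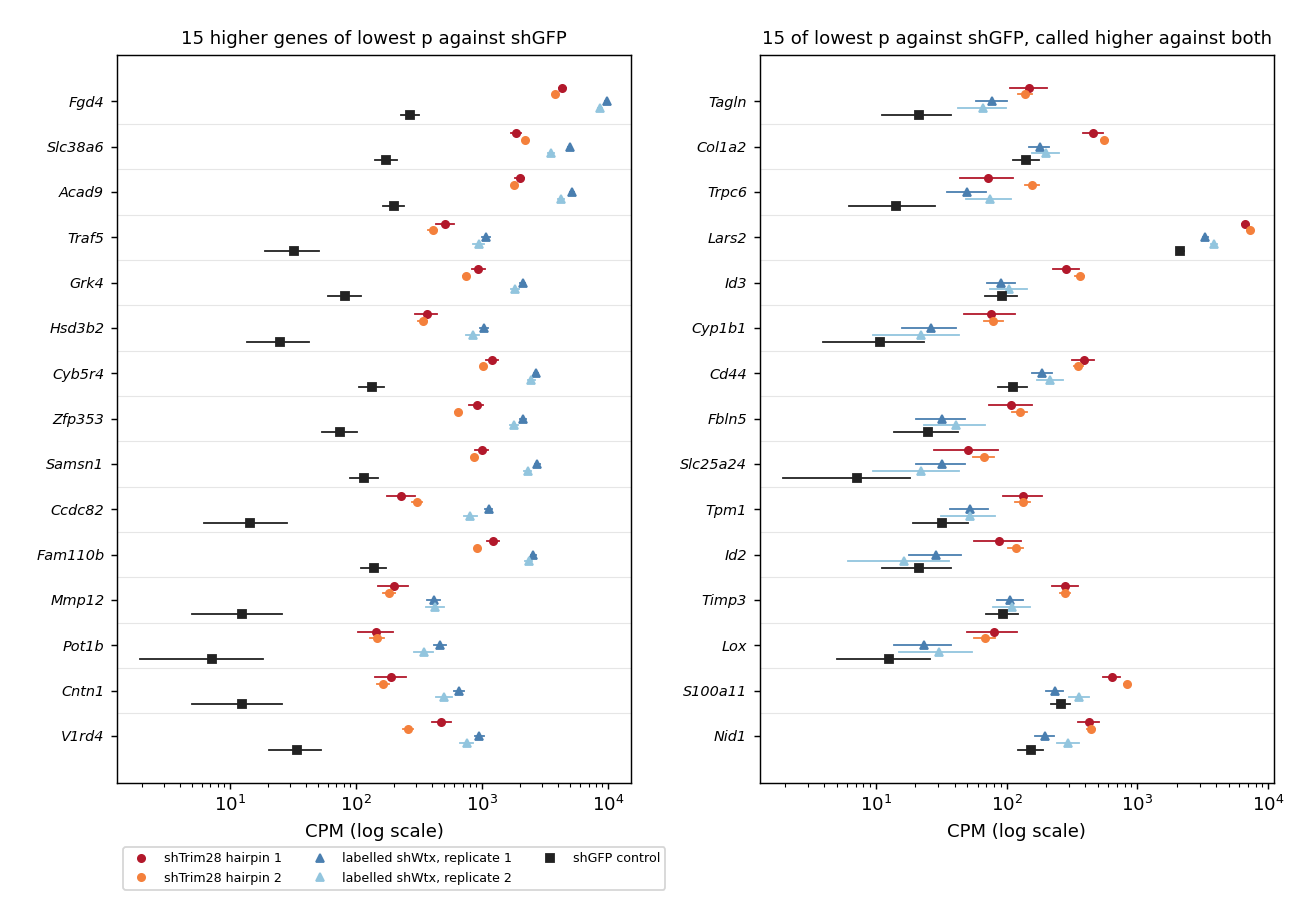
CPM on a log axis in each library, with exact 95% Poisson intervals as lines, for the 15 higher members of lowest p against the shGFP control (left) and the 15 of lowest p among those called higher against both the control and the libraries labelled shWtx (right). On the left the shTrim28 libraries lie between the control and the libraries labelled shWtx, and on the right they lie above both in most genes, with 1 Trim28 hairpin inside the range of the libraries labelled shWtx for Trpc6.

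Of 682 repeat members, 169 were higher in shTrim28 than in the control (24.8%) and 1 lower (0.147%), beside 20.9% and 0.111% of the 900 repeat rows tested. Both hairpins were above the control in 575 (84.3%, beside 82.6% of all repeat rows tested), and the median log2 fold change was 1.17. Without either library labelled shWtx, or with both left out, 0 were called, and 148 to 150 had an unadjusted p under 0.05. Without hairpin 2, 390 were called higher and 3 lower. With the repeats scaled by their own TMM factors the median was 0.03, 18 were called higher and 25 lower. So the direction of a repeat is given relative to gene counts, and relative to other repeats where stated. Of the 169 higher members, 154 had the control lowest and the libraries labelled shWtx highest (91.1%), against 524 of all 682 (76.8%), so here too the groups kept the order of the chemoreceptor sums.

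By class, the higher calls fell on LTR elements, the remains of retroviruses (99 of 314), on LINEs (35 of 102), on DNA transposons (16 of 71), on simple repeats (13 of 116) and on satellites (2 of 4), and on 0 of 33 SINEs. Of LTR families, 51 of 137 ERVK, 17 of 50 ERV1, 13 of 50 ERVL and 18 of 77 MaLR members rose, with medians between 1.27 and 1.36. Over all 682 repeat members 24.8% rose, and ERVL, MaLR and DNA transposons had shares near that. DNA transposons, which no longer move in mice, had a median of 1.32. So neither ERVK nor any other LTR family stood apart from them by its median.

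IAP elements are active ERVK retroviruses that Trim28 is known to silence. Of 15 members 10 rose, beside 24.8% of all repeat members, and 0 fell. The median log2 fold change was 1.94, beside 1.35 for all ERVK members. In 15 of 15 both hairpins were above the control, beside 84.3% of all repeat members. Under the repeats' own TMM factors 1 of the 15 rose, with a median of 0.89. IAPEz-int, the internal part of an IAP subfamily that still moves in mice, had the lowest p of all repeats. It stood at 2427 and 2980 CPM in shTrim28, and at 6648 and 4576 CPM in the libraries labelled shWtx, against 285 CPM in the control. Its log2 fold change relative to the control was 3.25 (SE 0.60, adjusted p = 7.75e-05), and 2.15 when repeats were scaled by their own TMM factors (adjusted p = 0.0469). IAPLTR1_Mm, the LTR of that subfamily, had another pattern. It stood at 856 and 2108 CPM in shTrim28, and at 405 and 355 CPM in the libraries labelled shWtx, against 184 CPM in the control. Both Trim28 hairpins were above every other library, by 3.01 relative to the control on the log2 scale (SE 0.63, adjusted p = 0.000484) and by 1.97 relative to the libraries labelled shWtx (SE 0.45, adjusted p = 0.00196). Under the repeats' own TMM factors these were 2.00 (adjusted p = 0.183) and 3.11 (adjusted p = 0.0653). Within a library, which needs no scaling, there were 35.3 and 70.7 counts of IAPLTR1_Mm per 100 of IAPEz-int with the Trim28 hairpins, and 6.09 and 7.76 in the libraries labelled shWtx, against 64.8 in the control. The control thus lay between both Trim28 hairpins on this ratio, and the libraries labelled shWtx lay below all 3.

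**Figure D4:**
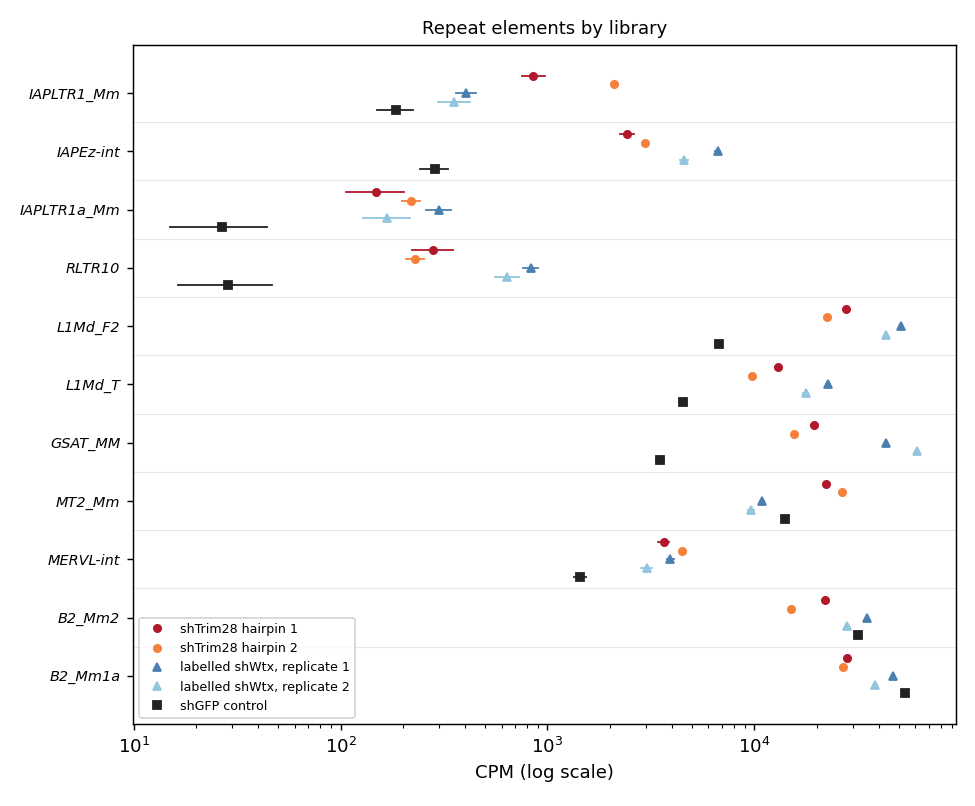
CPM on a log axis in each library, with exact 95% Poisson intervals as lines, for 11 repeat elements. IAPLTR1_Mm and MT2_Mm are highest in the shTrim28 libraries, IAPEz-int, RLTR10, the L1Md elements and GSAT_MM are highest in the libraries labelled shWtx and lowest in the shGFP control, and B2_Mm1a is highest in the control.

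MMERVK10C and RLTR10 elements, ERVK relatives, had 8 of 9 members called higher (median 1.97), beside 24.8% of all repeat members. RLTR10 was at 279 and 229 CPM in shTrim28, and at 829 and 639 CPM in the libraries labelled shWtx, against 28.7 CPM in the control (3.13, SE 0.71, adjusted p = 0.00129). MERVL and its LTR MT2, which mark a state like the 2-cell embryo, had fewer calls. Of 7 members 1 rose, MERVL-int, at 3647 and 4469 CPM in shTrim28, and at 3932 and 3020 CPM in the libraries labelled shWtx, against 1442 CPM in the control (1.49, SE 0.54, adjusted p = 0.0371). MT2_Mm was at 22315 and 26433 CPM in shTrim28, and at 10852 and 9686 CPM in the libraries labelled shWtx, against 14006 CPM in the control. It was higher in shTrim28 than in the libraries labelled shWtx (1.25, SE 0.36, adjusted p = 0.00873) and did not pass the test against the control (0.80, SE 0.45, adjusted p = 0.151). The group's median of 0.93 was −0.18 under the repeats' own TMM factors.

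L1 elements, the active LINE family, had 34 of 95 members called higher, beside 24.8% of all repeat members. Their median was 1.32, and 0.16 under the repeats' own TMM factors. L1Md_F2 was at 27881 and 22531 CPM in shTrim28, and at 51055 and 43275 CPM in the libraries labelled shWtx, against 6741 CPM in the control (1.90, SE 0.45, adjusted p = 0.00238). GSAT_MM, the major satellite of pericentromeric chromatin, was at 19369 and 15557 CPM in shTrim28, and at 43184 and 61128 CPM in the libraries labelled shWtx, against 3487 CPM in the control (2.32, SE 0.47, adjusted p = 0.000204). SYNREP_MM, L1_Mm, L1Md_F, RLTR13A3 and RLTR1C complete the 10 higher repeats of lowest p, with log2 fold changes of 3.08, 2.61, 2.58, 3.41 and 3.12.

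B2 elements, SINEs copied by RNA polymerase III, differed among themselves: both hairpins were below the control in 3 of the 5 members, above it in 1, B3A, and on opposite sides in the other. The 5 B2 members summed to 97145 and 76162 CPM in shTrim28, and to 161682 and 131644 CPM in the libraries labelled shWtx, against 138139 CPM in the control. Both Trim28 libraries were the lowest of the 5, but 0 of the 5 members passed the test relative to gene counts by edgeR (2 of 5 by DESeq2), and their median log2 fold change was −0.77. Relative to other repeats, 4 of the 5 fell under the repeats' own TMM factors, with a median of −1.94. The single repeat called lower was U17, a small nucleolar RNA, at 138 and 99.3 CPM in shTrim28, and at 134 and 124 CPM in the libraries labelled shWtx, against 338 CPM in the control (−1.54, SE 0.52, adjusted p = 0.0304). Relative to the libraries labelled shWtx, 11 repeat members were higher in shTrim28 (1.61%) and 444 lower (65.1%), beside 1.33% and 66% of all repeat rows tested. Without either library labelled shWtx 0 were called by edgeR, with 41 and 154 at an unadjusted p under 0.05, and DESeq2 on all 5 libraries called 7 and 356. The 3 that were higher in both comparisons were IAPLTR1_Mm, the ribosomal LSU-rRNA_Hsa and the spliceosomal U4. U4 was at 12707 and 18327 CPM in shTrim28, and at 6852.5 and 5719 CPM in the libraries labelled shWtx, against 5997.5 CPM in the control (1.37, SE 0.49, adjusted p = 0.0365).

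**Figure D5:**
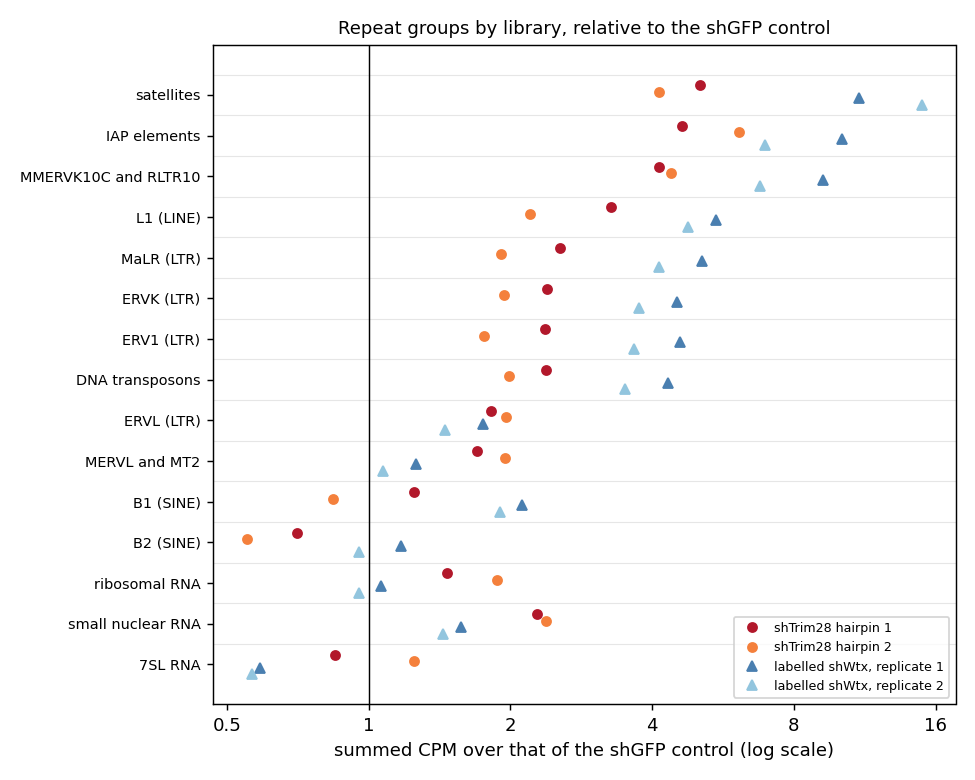
Points give the CPM summed over all rows of each repeat group, members or not, in the shTrim28 libraries and the libraries labelled shWtx. Each sum is divided by that in the shGFP control, on a log axis with the control at 1. For satellites, IAP elements, L1, the MaLR, ERVK and ERV1 families and DNA transposons the shTrim28 libraries lie between the control and the libraries labelled shWtx, whereas for B2 they lie below the control and for MERVL and MT2 above both.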

How the data were processed

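Total RNA of 5 ES-D3 libraries was read on the Helicos single-molecule platform, per the labels' protocols, with genome build mm9, per the submitters' processing notes. The deposited gene and repeat tables hold estimated counts per row, made by the authors. No aligner, counting rule or strand setting is named by the labels and tables used here. Overlapping or antisense genes, near-identical copies and repeat copies may therefore share reads.

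Counts were rounded. Gene rows passing filterByExpr were scaled by TMM and tested with edgeR 4.0.16 (R 4.3.3, quasi-likelihood, two-sided) with all 5 libraries in 3 groups, leaving 2 residual degrees of freedom, all from hairpin pairs. P-values were adjusted by Benjamini-Hochberg over all rows of a table, with a threshold of 0.05. Repeat rows were fitted apart with the gene table's library sizes. In each fit edgeR shares the estimate of spread across rows. For IAPLTR1_Mm hairpins 1 and 2 differed by 1.30 on the log2 scale, and for IAPEz-int by 0.30, but SEs were alike (0.63 and 0.60). CPM is the rounded count over that size, SE the log2 fold change over the root of F, and intervals cover counting error only. Named were the 15 members of lowest p in each direction, up to 5 per list, 10 repeats of lowest p in each direction, up to 3 repeats per family and 10 per direction against shWtx. The members and lists were chosen with earlier results of these data known. The scripts were tested on simulated data. Of simulated gene changes, 49% of those of 4-fold and 6% of those of 2-fold were called, and of repeat changes 74% and 11%. A row that did not pass the test is therefore not shown to be unchanged. Alternatives used DESeq2 1.42.0, limma 3.58.1, other filters, scalings and left-out libraries. Hairpin targets were matched to GENCODE M21 (GRCm38), not to mm9.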

Additional observations from a re-analysis of the deposited data

How the results depend on the processing

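The control was 1 library, so every p-value assumes that it varies as the hairpin pairs do. Members near the minimum of 20 counts rest on few reads in the shallowest library, that of hairpin 1. No paired analysis was possible because the labels give each library its hairpin and no replicate number. The numbers used here follow the order of the samples and pair nothing.

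Against the control, 414 gene members were higher in shTrim28 and 217 lower. DESeq2 gave 168 and 93, quantile normalization with limma 188 and 210, DESeq2 size factors 353 and 301, and the rows with a transcript length alone 290 and 333. With the chemoreceptor level subtracted the counts were 305 and 203. Leaving out 1 library gave 28 to 461 higher and 2 to 251 lower. Among 135 named genes, 56 lost the call without hairpin 1 and 79 without hairpin 2, and no called gene among them changed direction under the alternatives run. The 135 include genes not called in the main fit, which had no call to lose, so these counts are not shares of the called genes. Against the libraries labelled shWtx, 557 gene members were higher and 669 lower. DESeq2 gave 123 and 279 and quantile normalization 684 and 807. The rows with a transcript length alone gave 469 and 568, and the same kind of fit with the chemoreceptor level subtracted gave 312 and 584. Leaving out 1 library gave 0 to 306 higher and 0 to 570 lower.

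Of the repeat members, 169 were higher than in the control and 1 lower. DESeq2 gave 161 and 3, DESeq2 size factors 74 and 1, and quantile normalization 20 and 11. With only the shTrim28 and control libraries fitted both counts were 0 by edgeR, with 150 at an unadjusted p under 0.05. Scaling repeats by their own TMM factors gave 18 and 25, by their own total outside ribosomal RNA 108 and 16, and by DNA transposons 4 and 11. Leaving out 1 library gave 0 to 390 higher and 0 to 19 lower. Against the libraries labelled shWtx 11 were higher and 444 lower. DESeq2 gave 7 and 356, quantile normalization 6 and 0, own TMM factors 6 and 0, own total 31 and 1, and DNA transposons 8 and 0. Leaving out 1 library gave 0 to 22 higher and 0 to 598 lower. IAPEz-int, at −1.05 against the libraries labelled shWtx, turned to 0.013 under the repeats' own TMM factors. The cause of these changes was not tested. DNA-transposon scaling and the fit on rows with a length were chosen after seeing the data.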
